A study of Mus musculus with 8 samples.

Results

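The cytochrome P450 family 4 (Cyp4) fatty acid hydroxylases of mouse liver were described here in animals given an inhibitor of miR-122 or a control inhibitor. The group was set by gene symbol and held 10 genes, Cyp4a10, Cyp4a12a, Cyp4a12b, Cyp4a14, Cyp4a31, Cyp4a32, Cyp4f13, Cyp4f14, Cyp4f15 and Cyp4v3, each of which matched 1 of the 43629 entries with values. All 10 passed the filter of a mean of at least 1 FPKM (fragments per kilobase of transcript, normalised for sequencing depth), which 11131 genes passed. The livers came from male C57BL/6 mice aged 7 to 8 weeks. In the antagomiR-122 group, 4 mice received 5 µg of antagomiR-122, a chemically modified antisense RNA against the microRNA miR-122, through the tail vein. In the antagomiR-control group, 4 mice received the same amount of antagomiR-control. All 8 mice were then given 1 mg/kg CL316243, which activates β3-adrenergic receptors on fat cells, under the skin 48 h after the antagomiR and were killed 2 h later, so no group lacked the agonist. One library of liver RNA was sequenced per mouse.

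P450 enzymes of family 4 sit in the endoplasmic reticulum membrane and add a hydroxyl group to the end of a fatty acid chain (omega-hydroxylation), using electrons passed on by P450 oxidoreductase. Alcohol and aldehyde dehydrogenases then turn the product into a dicarboxylic acid, which is shortened in peroxisomes. In mouse liver Cyp4a10 and Cyp4a14 are classical targets of the fatty acid receptor PPARα, Cyp4a12a is the male-biased enzyme that makes 20-HETE from arachidonic acid, and the Cyp4f enzymes act on leukotriene B4 and other long-chain substrates. Cyp4v3 is the mouse counterpart of human CYP4V2, which is mutated in Bietti crystalline dystrophy of the retina.

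The 6 Cyp4a genes lie on chromosome 4 and the 3 Cyp4f genes on chromosome 17 of GRCm38. Each of the 10 coding sequences held 1 match to the haem-binding signature of P450 enzymes, in which a cysteine holds the haem iron. The 60 coding bases around it are shown because they let a reader see how alike the paralogues are, which limits how well reads can be told apart between them. They were read from GENCODE M21, run 5′ to 3′ along the gene's own strand and across 1 exon junction, and have the codon of the cysteine in capitals.
Cyp4a10, chr4:115529487-115532558, plus strand: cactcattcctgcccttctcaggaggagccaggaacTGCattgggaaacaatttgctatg
Cyp4a31, chr4:115574935-115577963, plus strand: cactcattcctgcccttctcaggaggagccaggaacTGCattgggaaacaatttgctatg
Cyp4a32, chr4:115614865-115621461, plus strand: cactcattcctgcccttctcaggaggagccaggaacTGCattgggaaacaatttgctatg
Cyp4a12a, chr4:115328971-115331861, plus strand: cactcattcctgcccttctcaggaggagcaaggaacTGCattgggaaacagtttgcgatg
Cyp4a12b, chr4:115435225-115438084, plus strand: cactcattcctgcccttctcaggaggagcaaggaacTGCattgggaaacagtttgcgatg
Cyp4a14, chr4:115487284-115489820, minus strand: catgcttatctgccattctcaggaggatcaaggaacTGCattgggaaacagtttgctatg
Cyp4f13, chr17:32924927-32925355, minus strand: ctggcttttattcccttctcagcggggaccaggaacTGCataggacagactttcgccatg
Cyp4f14, chr17:32905651-32906080, minus strand: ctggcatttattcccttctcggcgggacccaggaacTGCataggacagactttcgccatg
Cyp4f15, chr17:32702383-32702816, plus strand: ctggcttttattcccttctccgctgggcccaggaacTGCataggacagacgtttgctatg
Cyp4v3, chr8:45307092-45308422, minus strand: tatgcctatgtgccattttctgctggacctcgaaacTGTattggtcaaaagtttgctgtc
Cyp4a10, Cyp4a31 and Cyp4a32 had the same 60 bases here, and so had Cyp4a12a and Cyp4a12b. Those 2 sets differed from each other at 3 bases, and Cyp4a14 differed at 9 bases from Cyp4a10. Within the Cyp4f genes, 4 to 7 bases differed between pairs.

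Over the whole coding sequence, Cyp4a12a and Cyp4a12b were 98.5% identical, with 23 mismatches in 1524 aligned bases. Cyp4a10 was 97.2% identical to Cyp4a32 and 96.6% to Cyp4a31. Cyp4a14 stood further off, at 76.8% identity to Cyp4a10, and the closest Cyp4f pair was Cyp4f14 and Cyp4f15 at 82.1%. Of all 50-base stretches of the longest coding transcript, 48.9% of those of Cyp4a12a, 49.4% of those of Cyp4a12b and 46.8% of those of Cyp4a32 also occurred in another Cyp4 transcript. The share was 30.5% for Cyp4a10, 20.1% for Cyp4a31, 0.245% for Cyp4a14, 2.45% to 2.72% for the Cyp4f genes and 7.02% for Cyp4v3, all of the last with Gm45753, a gene model that overlaps it. These shares depend on annotated length. The Cyp4a32 transcript has 1530 bases and no 3′ UTR, against 2109 bases for Cyp4a10 and 2509 for Cyp4a31. Neither the read length nor the way reads that match several genes were divided is given in the sources used here, so the levels of Cyp4a12a, Cyp4a12b, Cyp4a10, Cyp4a31 and Cyp4a32 as single genes are uncertain.

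RefSeq promoter windows (GRCm38.p6, 250 bases before to 50 after the start) were at hand for 5 of the 10 genes, and 4 of the 5 held a CCAAT box (CCAAT, or ATTGG on the other strand), as did 37.4% of all 32851 promoters. The last 150 bases before the start are shown for these 4 with the box in capitals. It lay 76 bases before the start in Cyp4f13, 78 in Cyp4f15 and 80 in Cyp4a32. Cyp4f14 has 4 listed starts, with a box 24, 50, 64 or 77 bases before them, and the window shown is the one with 64.
Cyp4f13, chr17:32947362-32947511, minus strand: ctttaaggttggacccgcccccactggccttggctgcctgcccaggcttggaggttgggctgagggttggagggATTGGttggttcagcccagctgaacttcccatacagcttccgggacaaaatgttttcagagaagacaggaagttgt
Cyp4f14, chr17:32917343-32917492, minus strand: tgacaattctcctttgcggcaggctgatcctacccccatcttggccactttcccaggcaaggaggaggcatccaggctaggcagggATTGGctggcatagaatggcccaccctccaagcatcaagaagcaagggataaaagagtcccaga
Cyp4f15, chr17:32685509-32685658, plus strand: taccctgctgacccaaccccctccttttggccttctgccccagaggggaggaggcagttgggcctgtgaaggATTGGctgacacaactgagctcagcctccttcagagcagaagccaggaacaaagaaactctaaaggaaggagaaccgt
Cyp4a32, chr4:115600788-115600937, plus strand: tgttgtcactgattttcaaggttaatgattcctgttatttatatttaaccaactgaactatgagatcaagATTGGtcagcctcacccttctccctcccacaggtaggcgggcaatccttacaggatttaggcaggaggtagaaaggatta
For Cyp4v3, no box was in this window. The direct repeat AGGTCANAGGTCA, a strict form of the PPARα response element, was in 0 of the 8 promoter entries of these genes on either strand, against 0.0396% of all promoters, so these letters alone separate few promoters. Cyp4a10, Cyp4a14, Cyp4a12a, Cyp4a12b and Cyp4a31 had no promoter entry and so were not searched. No factor's binding was measured.

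The genes were searched for miR-122 sites as the agent under study blocks that microRNA. The sites ACACTCC and CACTCCA, which pair with the miR-122 seed, occurred 0 times in the annotated 3′ UTRs of the 9 genes that have one (longest 89 to 1992 bases). In GENCODE M21, Cyp4a32 has none. Among all tested genes with an annotated 3′ UTR, 15.5% held such a site in a median length of 1141 bases. The mature microRNA itself was not analysed here.

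As for the libraries, relative depth estimated from the steps between low values was 0.889 to 1.11 in 7 of them, with a value of 2.38 for the fourth antagomiR-122 mouse. This library lay far out on the first principal component of the tested genes (38.2, against -13.6 to 0.81 in the other 7, with 32.4% of the variance), and 15 genes were listed at 0 in it while above 5 FPKM elsewhere. Of 9 hepatocyte markers, 8 were above 0 and summed to 10173 to 12108 FPKM in antagomiR-122 mice and 10380 to 12721 FPKM in antagomiR-control mice. Alb was listed at 0 in all libraries. Summed neutrophil markers ranged from 5.78 to 12.6 FPKM in antagomiR-122 mice and from 8.77 to 25.8 FPKM in antagomiR-control mice (exact permutation p = 0.143, n = 4 each). Summed cholangiocyte markers ranged from 26.0 to 30.5 FPKM in antagomiR-122 mice and from 30.4 to 38.7 FPKM in antagomiR-control mice (exact permutation p = 0.0571, n = 4 each), the smallest p of the 10 cell types. By limma 0 markers of any cell type passed the test. In whole liver, fewer cells of a type and less RNA per cell cannot be told apart.

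Cyp4a14 (chromosome 4, 115486200 to 115496142, minus strand) was the most abundant of the 10 genes, followed by Cyp4a10 (115518264 to 115533649, plus strand). Cyp4a14 stood at 664, 1288, 561 and 502 FPKM in antagomiR-122 mice, against 518, 321, 823 and 736 FPKM in antagomiR-control mice (replicates 1 to 4 in this and the following lists). The groups overlapped, with the highest value in antagomiR-122 replicate 2 and the lowest in antagomiR-control replicate 2. Cyp4a14 averaged 754 ± 363 FPKM in antagomiR-122 mice and 600 ± 226 FPKM in antagomiR-control mice (SD, n = 4 each). Cyp4a10 stood at 364, 646, 411 and 349 FPKM in antagomiR-122 mice, against 248, 238, 376 and 393 FPKM in antagomiR-control mice. All 4 antagomiR-122 mice lay above the antagomiR-control mean, yet antagomiR-control replicates 3 and 4 lay above antagomiR-122 replicates 1 and 4. Cyp4a10 averaged 442 ± 138 FPKM in antagomiR-122 mice and 314 ± 82.3 FPKM in antagomiR-control mice (SD, n = 4 each).

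Cyp4a12a and Cyp4a12b, the male-biased pair (115299046 to 115332815 and 115411624 to 115439034 on chromosome 4, plus strand), came next in this subfamily. Cyp4a12a stood at 86.4, 229, 145 and 94.3 FPKM in antagomiR-122 mice, against 153, 91.7, 92.0 and 156 FPKM in antagomiR-control mice. Cyp4a12b stood at 29.9, 89.9, 33.9 and 21.3 FPKM in antagomiR-122 mice, against 34.5, 33.8, 22.2 and 48.0 FPKM in antagomiR-control mice. In both genes antagomiR-122 replicate 2 was highest, while the 3 other antagomiR-122 mice lay among the antagomiR-control mice or below them. The ratio of Cyp4a12b to Cyp4a12a ran from 0.226 to 0.393 over the 8 mice. The ratio averaged 0.30 ± 0.083 in antagomiR-122 mice and 0.29 ± 0.065 in antagomiR-control mice (exact two-sided permutation p = 0.83, n = 4 each).

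Cyp4a31 and Cyp4a32, which lie beyond Cyp4a10 on the chromosome (115563649 to 115579015 and 115600969 to 115621602, plus strand), had the lowest means of the 10 over the 8 mice. Cyp4a31 stood at 34.8, 49.1, 23.9 and 14.2 FPKM in antagomiR-122 mice, against 37.3, 24.9, 21.3 and 41.1 FPKM in antagomiR-control mice. Cyp4a32 stood at 24.2, 35.6, 24.8 and 19.2 FPKM in antagomiR-122 mice, against 30.7, 21.9, 25.7 and 30.8 FPKM in antagomiR-control mice. For both, the highest and the lowest value of all 8 mice fell within the antagomiR-122 group, in replicates 2 and 4. Cyp4a31 was below Cyp4a32 in antagomiR-122 replicates 3 and 4 and in antagomiR-control replicate 3, and above it in the other 5 mice.

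**Figure D1:**
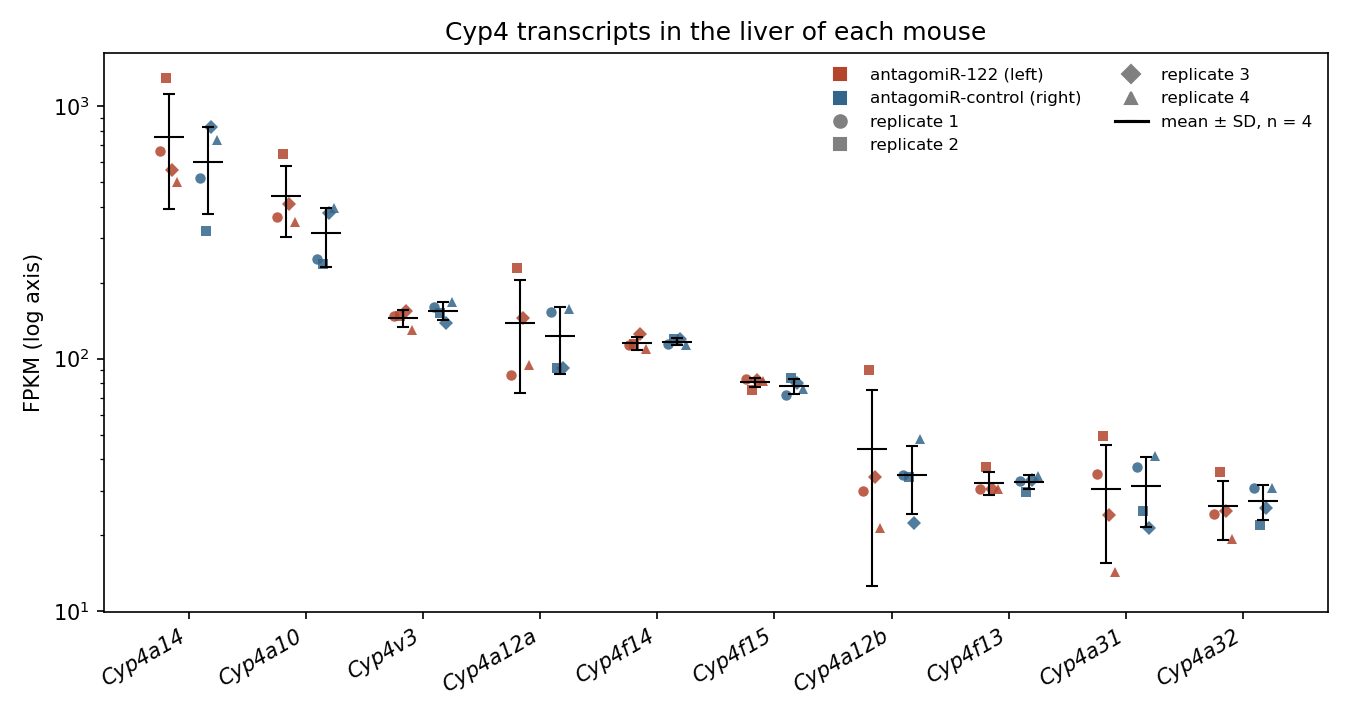
FPKM of each of the 10 Cyp4 genes (log axis) in the 4 antagomiR-122 and the 4 antagomiR-control mice, 1 point per mouse, with bars at the group means. The groups overlap for all 10 genes, and the Cyp4a genes are spread more widely than the Cyp4f genes and Cyp4v3.

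The Cyp4f genes and Cyp4v3 differed little from mouse to mouse. Cyp4f14 (chromosome 17, 32905071 to 32917342, minus strand), an omega-hydroxylase of leukotriene B4 and vitamin E, stood at 113, 114, 125 and 109 FPKM in antagomiR-122 mice, against 114, 119, 120 and 113 FPKM in antagomiR-control mice. Cyp4f15 (32685627 to 32703352, plus strand) stood at 82.7, 75.2, 82.6 and 81.3 FPKM in antagomiR-122 mice, against 71.6, 84.0, 80.2 and 75.6 FPKM in antagomiR-control mice. All 4 antagomiR-122 values of Cyp4f15 lay inside the range of the antagomiR-control mice, and those of Cyp4f14 lay inside it or within a few FPKM on either side. Cyp4f13 (32924688 to 32947402, minus strand) stood at 30.4, 37.3, 30.5 and 30.4 FPKM in antagomiR-122 mice, against 32.7, 29.5, 33.0 and 34.3 FPKM in antagomiR-control mice. Its antagomiR-122 replicate 2 was the highest of the 8 while the 3 other mice of that group were within 0.1 FPKM of each other. Summed over the 3 genes, the level was 228 ± 7.19 FPKM in antagomiR-122 mice and 227 ± 7.19 FPKM in antagomiR-control mice (SD, n = 4 each; exact two-sided permutation p = 0.914).

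Cyp4v3 (chromosome 8, minus strand) stood at 147, 147, 154 and 129 FPKM in antagomiR-122 mice, against 161, 151, 138 and 168 FPKM in antagomiR-control mice. The highest value was that of an antagomiR-control mouse and the lowest that of an antagomiR-122 mouse, and the groups overlapped. The deposited entry runs from 45269671 to 45333216 and lists 2 transcripts, of which the 1 at 45269671 to 45308466 ends inside the neighbouring gene Klkb1, the precursor of plasma kallikrein. In GENCODE M21 that span is the gene model Gm45753, which overlaps Klkb1, while the transcript itself is listed under Klkb1. Cyp4v3 is given there as 45304944 to 45333216. The deposited entry named Klkb1 is the gene that M21 calls Gm45753, and the Klkb1 gene of M21 has no values. That entry stood at 57.1, 64.4, 48.0 and 66.4 FPKM in antagomiR-122 mice, against 68.7, 67.0, 64.5 and 58.8 FPKM in antagomiR-control mice. Whether reads of Klkb1 or Gm45753 entered the Cyp4v3 value was not tested.

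In the order of mean level over the 8 mice, Cyp4a14 (677 FPKM) was above Cyp4a10 (378 FPKM) in 8 of 8 mice, and Cyp4a10 above Cyp4v3 (149.5 FPKM) without overlap. Cyp4v3 was above Cyp4a12a (131 FPKM) in 7 of 8 mice, and Cyp4a12a above Cyp4f14 (116 FPKM) in only 4 of 8. Cyp4f14 was above Cyp4f15 (79.2 FPKM) without overlap, and Cyp4f15 above Cyp4a12b (39.2 FPKM) in 7 of 8. The last 4, Cyp4a12b, Cyp4f13 (32.3 FPKM), Cyp4a31 (30.8 FPKM) and Cyp4a32 (26.6 FPKM), changed places from mouse to mouse: each was above the next in 4 or 5 of 8 mice. Their order is therefore not separated by the spread between mice.

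The comparison of antagomiR-122 with antagomiR-control mice asked whether the inhibitor of miR-122 changed these genes under the agonist. By limma on log2(FPKM + 1), with Benjamini-Hochberg adjustment over all 11131 tested genes and a threshold of 0.05, 0 of the 10 genes passed the test, against 0% of all tested genes, whose smallest adjusted p was 0.251. At an unadjusted p under 0.05 the count was again 0 of 10, against 7.44% of all tested genes (3.76% higher and 3.67% lower in antagomiR-122 mice). With 1 mouse left out, Cyp4a10 came under that unadjusted limit in 3 of 8 cases, at limma unadjusted p = 0.0464 when antagomiR-122 replicate 4 was dropped, and 0.0444 and 0.0340 when antagomiR-control replicates 3 and 4 were. The groups overlapped for all 10, whereas they did not for 4.52% of all tested genes. Of the 10, 5 were higher and 5 lower in antagomiR-122 mice, with a median log2 fold change of 0.02 against 0.01 over all tested genes.

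The highest log2 fold change was that of Cyp4a10, 0.49 (SE 0.23, 95% interval -0.04 to 1.01), a fold of 1.41 between the means, with a limma unadjusted p of 0.0646 and an adjusted p of 0.688. Cyp4a14 followed at 0.31 (95% interval -0.54 to 1.17, limma adjusted p = 0.878). Without antagomiR-122 replicate 2 these 2 values were 0.29 and 0.02, and without antagomiR-control replicate 2 they were 0.37 and 0.04. Cyp4a12b was at 0.16 (95% interval -0.82 to 1.14) and Cyp4a12a at 0.10 (95% interval -0.66 to 0.87), and without antagomiR-122 replicate 2 both fell below 0, at -0.26 and -0.17. Without antagomiR-control replicate 3 they were at -0.031 and -0.019, and without antagomiR-control replicate 2 Cyp4a12a was at -0.020. Cyp4a31 was at -0.11 (95% interval -0.97 to 0.75) and Cyp4a32 at -0.09 (95% interval -0.48 to 0.30). Without antagomiR-122 replicate 4, the library that lay apart, Cyp4a31 was at 0.19, Cyp4a32 at 0.04 and Cyp4a10 at 0.59. The intervals of Cyp4a12b and Cyp4a31 thus reached a fold of 2.2 upward and 0.510 downward, so these 8 mice leave wide room for a change in those genes.

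The intervals were narrow in the other genes. Cyp4f14 was at -0.02 (95% interval -0.18 to 0.13), Cyp4f13 at -0.01 (-0.21 to 0.19) and Cyp4f15 at 0.05 (-0.12 to 0.21). For Cyp4v3 the log2 fold change was -0.10 (95% interval -0.29 to 0.10). On the scale of folds, the intervals of the 3 Cyp4f genes ran from 0.863 to 1.16 and that of Cyp4v3 from 0.818 to 1.07. The limma adjusted p of these 4 genes lay between 0.838 and 0.980.

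**Figure D2:**
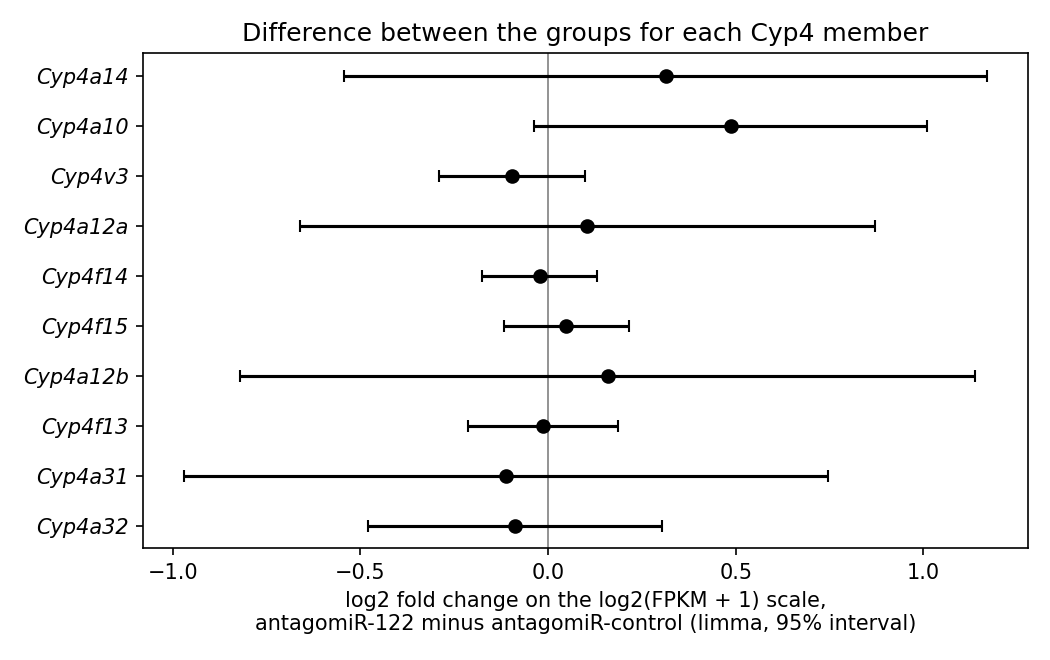
Log2 fold change on the log2(FPKM + 1) scale, antagomiR-122 minus antagomiR-control (x axis), for each Cyp4 gene, with the limma estimate as a point and its 95% interval as a bar, 4 mice per group. Every interval includes 0, and those of the Cyp4f genes and Cyp4v3 are narrower than those of the Cyp4a genes.

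The authors' deposited table marked 0 of the 10 genes as significant, against 1.42% of the 13259 genes it tested. The smallest value in the authors' deposited table was that of Cyp4a10, with p = 0.0018, q = 0.101 and a log2 fold change of 0.50. Next in the authors' deposited table was Cyp4a12b, with p = 0.0134 and q = 0.362, a gene for which antagomiR-122 replicate 2 held 89.9 FPKM and no other mouse more than 48.0 FPKM. An unadjusted p under 0.05 was given in the authors' deposited table to 6.92% of its genes.

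Since reads may be divided differently among near-identical Cyp4a genes, their summed level was compared too. It was 1203, 2338, 1199 and 1000.4 FPKM in antagomiR-122 mice, against 1021, 732, 1361 and 1406 FPKM in antagomiR-control mice. The sum was highest in antagomiR-122 replicate 2 and lowest in antagomiR-control replicate 2, and the 3 other antagomiR-122 mice lay between the antagomiR-control extremes. The sum averaged 1435 ± 609 FPKM in antagomiR-122 mice and 1129.8 ± 316 FPKM in antagomiR-control mice (SD, n = 4 each), with a difference of 0.31 in mean log2 value (exact two-sided permutation p = 0.457, where 0.0286 is the smallest that 4 mice against 4 allow). Leaving out 1 mouse at a time moved the difference between 0.05 and 0.46, the lowest without antagomiR-122 replicate 2. The sum of Cyp4a10, Cyp4a31 and Cyp4a32, the set with the same haem-binding stretch, was 499 ± 158 FPKM in antagomiR-122 mice and 372 ± 85.8 FPKM in antagomiR-control mice (exact two-sided permutation p = 0.229, n = 4 each).

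The share of the Cyp4a sum held by each gene was set side by side next. Cyp4a14 gave 51.8 ± 4.10% of it in antagomiR-122 mice and 51.9 ± 6.82% in antagomiR-control mice (SD, n = 4 each, exact permutation p = 1). Cyp4a10 gave 31.8 ± 3.44% in antagomiR-122 mice and 28.1 ± 3.40% in antagomiR-control mice (exact permutation p = 0.2, n = 4 each). The share of Cyp4a12a was 9.62% in antagomiR-122 mice and 11.3% in antagomiR-control mice, and that of each of the 3 other genes was under 4% in both group means. None of the 6 shares differed beyond the spread between mice, the smallest exact permutation p being 0.143 for Cyp4a32.

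The genes also differed in how much they varied between mice. The coefficient of variation over the 8 mice was 56.4% for Cyp4a12b, 43.1% for Cyp4a14, 38.0% for Cyp4a12a, 37.7% for Cyp4a31, 33.3% for Cyp4a10 and 20.1% for Cyp4a32. It was 8.17% for Cyp4v3, 8.16% for Cyp4f13, 5.63% for Cyp4f15 and 4.31% for Cyp4f14. Over all tested genes the median was 13.5% and the middle range 9.39% to 20.2%. Among tested genes, 98.2% varied less than Cyp4a12b, 92.1% less than Cyp4a10 and 74.9% less than Cyp4a32, whereas 1.38% varied less than Cyp4f14. The ratio of the highest to the lowest mouse was 4.22 for Cyp4a12b and 4.01 for Cyp4a14, but 1.15 for Cyp4f14. Without antagomiR-122 replicate 2, the coefficient of variation was 28.1% for Cyp4a12b, 28.3% for Cyp4a14, 27.8% for Cyp4a12a, 34.4% for Cyp4a31, 20.4% for Cyp4a10 and 16.8% for Cyp4a32, against a median of 13.1% over all tested genes, and the ratio of highest to lowest was 2.25 for Cyp4a12b and 2.56 for Cyp4a14. In the same 7 mice it was 4.61% to 8.78% for the Cyp4f genes and Cyp4v3. These values are a description of 8 mice and were given no test.

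**Figure D3:**
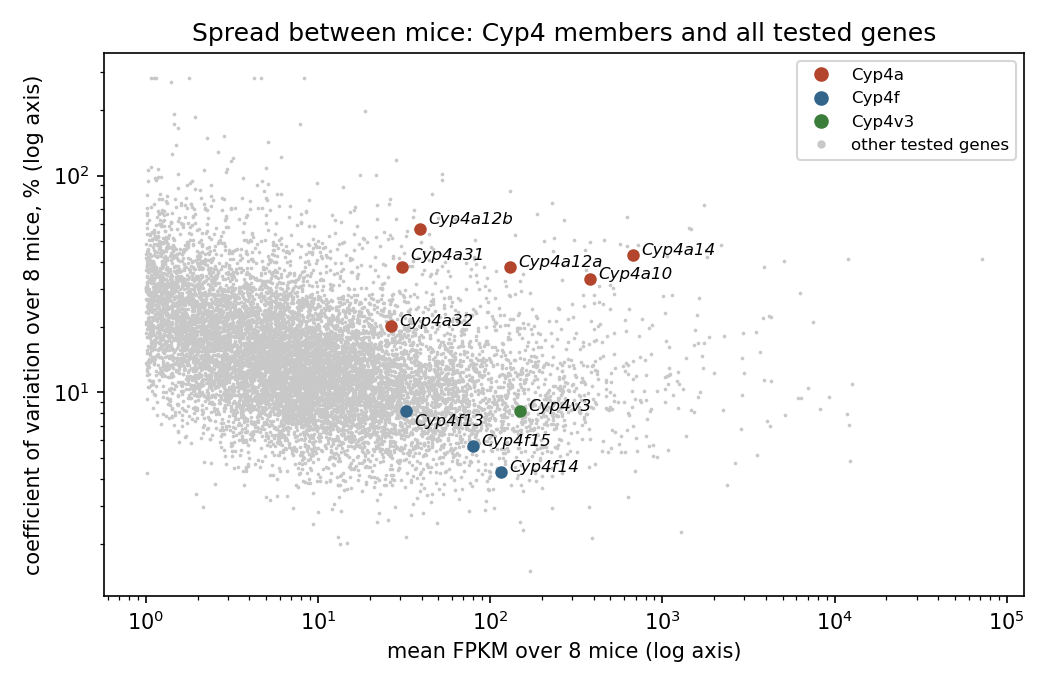
Coefficient of variation over the 8 mice in percent (log axis) against mean FPKM over the 8 mice (log axis) for the Cyp4a genes, the Cyp4f genes, Cyp4v3 and all other tested genes, 1 point per gene. The Cyp4a genes lie at 20.1% to 56.4% (16.8% to 34.4% without antagomiR-122 replicate 2, not plotted) and the Cyp4f genes and Cyp4v3 at 4.31% to 8.17%.

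A single mouse held the top of most of these profiles. antagomiR-122 replicate 2 was the highest of the 8 for 6 of 6 Cyp4a genes and for 7 of the 10 genes. The lowest Cyp4a value fell in antagomiR-122 replicate 4 for 3 genes, in antagomiR-control replicate 2 for 2 and in antagomiR-122 replicate 1 for 1. In antagomiR-122 replicate 2, relative depth was 1.00, the hepatocyte markers summed to 12108 FPKM, inside the range of antagomiR-control mice, and the endothelial markers to 93.5 FPKM, the stellate cell and fibroblast markers to 91.9 FPKM and the neutrophil markers to 5.78 FPKM, each the lowest of the 8. For every other cell type its marker sum lay inside the range of the remaining mice. Among these were Kupffer cell and macrophage (213 FPKM), cholangiocyte (29.1 FPKM), lymphocyte (2.22 FPKM) and erythroid markers (225 FPKM). The part of depth and of these markers in the Cyp4a level was not tested.

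**Figure D4:**
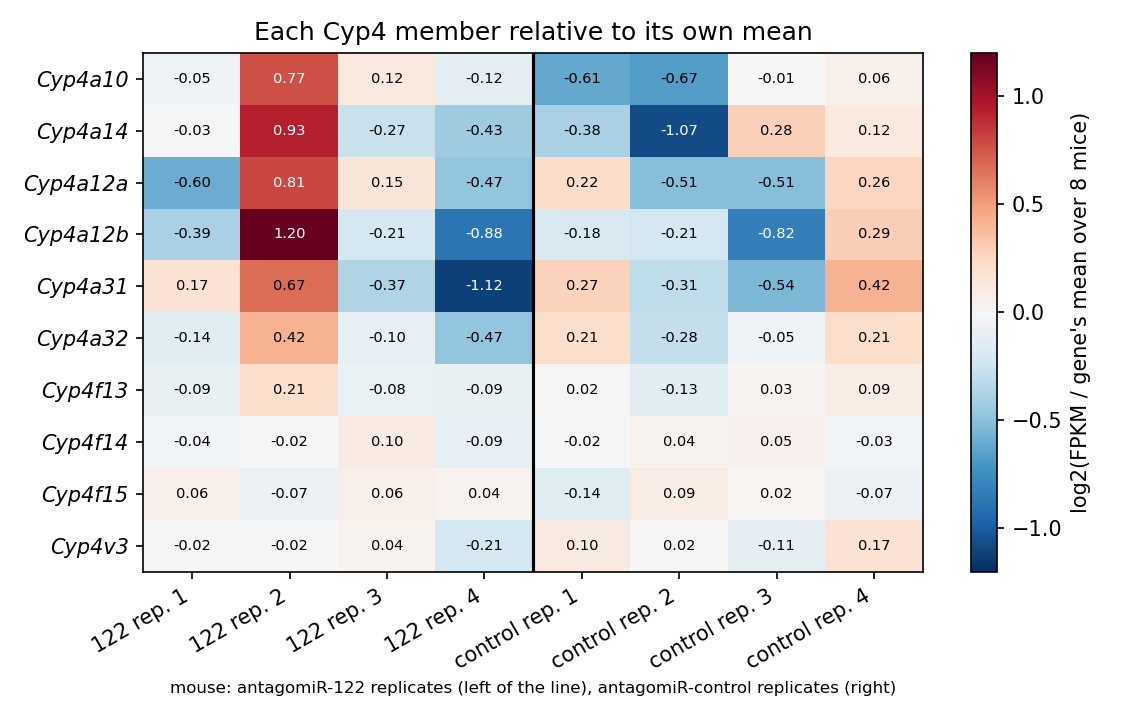
Level of each Cyp4 gene in each mouse relative to the gene's mean over the 8 mice, as a log2 difference (colour), with genes in rows and the 4 antagomiR-122 mice to the left of the 4 antagomiR-control mice. The Cyp4a rows are all highest in antagomiR-122 replicate 2, and the Cyp4f rows and Cyp4v3 stay near 0.

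Over the 8 mice, Pearson's r of log2(FPKM + 1) was above 0 for all 15 pairs of Cyp4a genes and ran from 0.33 to 0.89. This shared sign rested on antagomiR-122 replicate 2: without it r was above 0 for 12 pairs and below 0 for 3, at -0.12 for Cyp4a10 and Cyp4a31, -0.080 for Cyp4a10 and Cyp4a12b and -0.056 for Cyp4a14 and Cyp4a12b. A positive r was not particular to this subfamily. Cyp4f13, from another chromosome, had r above 0 with every Cyp4a gene, from 0.67 for Cyp4a31 to 0.88 for Cyp4a32 (rho 0.95). Without antagomiR-122 replicate 2 these values ran from 0.26 to 0.81. Cyp4f15 had r below 0 with every Cyp4a gene over the 8 mice, from -0.80 for Cyp4a32 to -0.12 for Cyp4a10. After adjustment over all 45 pairs of the 10 genes, 0 pairs passed 0.05 by Pearson's r or by Spearman's rho. The pair with the highest r among the Cyp4a genes was Cyp4a31 and Cyp4a32 (r = 0.89, rho = 0.79, exact permutation p adjusted for r 0.0619, n = 8), and r was 0.68 without the 2 mice farthest from the median. For Cyp4a14 and Cyp4a10 r was 0.88 and rho 0.81 (exact permutation p adjusted for r 0.0670 and for rho 0.114, n = 8). Without the 2 farthest mice, antagomiR-122 replicate 2 and antagomiR-control replicate 2, it dropped to 0.49, so the relation of these PPARα targets rests in part on those 2 mice. For Cyp4a12a and Cyp4a12b r was 0.86 and 0.76 without the 2 farthest mice.

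Likeness over mice and likeness of sequence were set side by side, with no test. Cyp4a31 and Cyp4a32 (96.0% identity) and Cyp4a12a and Cyp4a12b (98.5%) had the r values of 0.89 and 0.86 given above. Cyp4a10 had the coding sequence nearest to those of Cyp4a32 and Cyp4a31, but its r was 0.48 with Cyp4a32 and 0.33 with Cyp4a31, below the 0.88 with Cyp4a14 at 76.8% identity, which dropped to 0.49 without the 2 farthest mice. The r values share 8 libraries and, for near-identical pairs, may share reads.

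**Figure D5:**
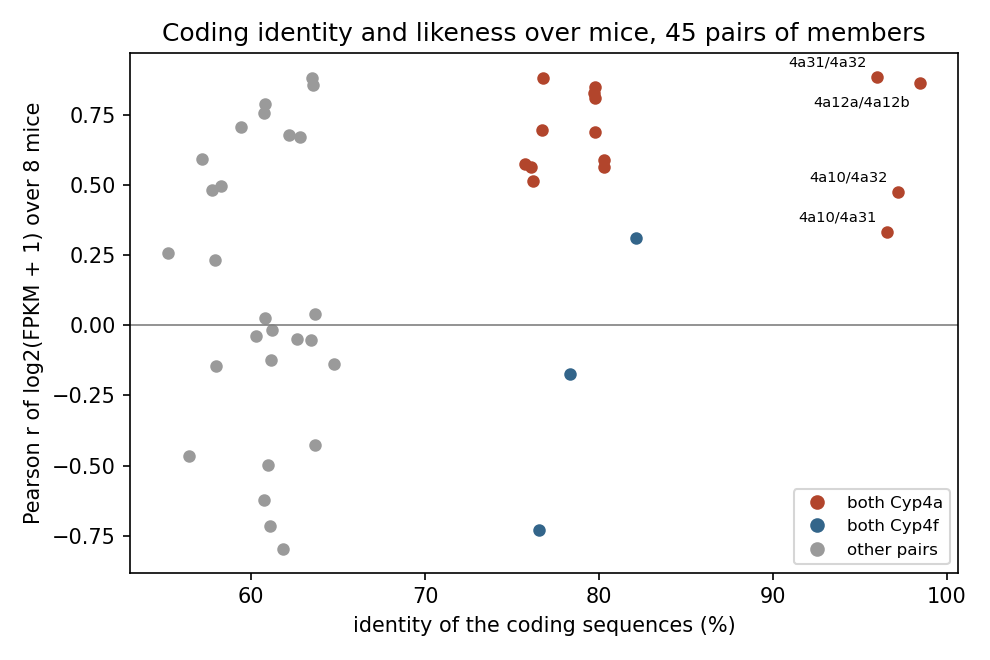
Pearson's r of log2(FPKM + 1) over the 8 mice against identity of the coding sequences in percent, 1 point for each of the 45 pairs of Cyp4 genes. With all 8 mice the 15 pairs of Cyp4a genes lie above 0, though 3 of them are below 0 without antagomiR-122 replicate 2 (not plotted), and the near-identical pairs spread from 0.33 to 0.89. Pairs of Cyp4f13 with Cyp4a genes lie above 0 as well.

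The genes with the most similar course over the 8 mice were sought by the smallest root mean square distance between mean-centred log2(FPKM + 1) profiles among 11121 other tested genes. For Cyp4a14, whose own root mean square deviation was 0.550, they were Acot1 (0.242), an acyl-CoA thioesterase, Slc22a5 (0.270), the carnitine transporter, and Hyou1 (0.286), a chaperone of the endoplasmic reticulum. For Cyp4a10 (0.420) they were Mcm10 (0.131), a DNA replication factor, Hip1r (0.160) and Gm21839 (0.178). For Cyp4a12a (0.476) they included Lifr (0.199), the leukaemia inhibitory factor receptor, and Fgl1 (0.205), a protein secreted by hepatocytes. For Cyp4f14 (0.0574) they were Dtymk (0.0264), thymidylate kinase, Hdgfrp2 (0.0364) and Pgam1 (0.0376), phosphoglycerate mutase. Acot1 stood at 72.3, 132, 75.4 and 38.9 FPKM in antagomiR-122 mice, against 65.4, 41.7, 81.0 and 75.7 FPKM in antagomiR-control mice. Its highest mouse was that of the Cyp4a genes, which its choice as the nearest profile to Cyp4a14 made likely.

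The partners of omega-hydroxylation were measured alongside. Of 16 listed genes 15 were tested and 0 passed, 9 being higher and 6 lower in antagomiR-122 mice, with a median log2 fold change of 0.08 against 0.01 over all tested genes. Por, which hands electrons to all microsomal P450 enzymes, stood at 178, 137, 173 and 121.7 FPKM in antagomiR-122 mice, against 72.4, 101, 153 and 112 FPKM in antagomiR-control mice (log2 fold change 0.51, SE 0.21, limma adjusted p = 0.658). Its groups overlapped through antagomiR-control replicate 3. Aldh3a2, the fatty aldehyde dehydrogenase, averaged 271 ± 49.4 FPKM in antagomiR-122 mice and 208 ± 31.2 FPKM in antagomiR-control mice (log2 fold change 0.38, limma adjusted p = 0.613). Cytochrome b5 (Cyb5a) was at 0.18 and the outer mitochondrial membrane form Cyb5b at -0.18, while the alcohol dehydrogenase Adh4 was at -0.30 and the aldehyde dehydrogenase Aldh9a1 at 0.14. Fabp1, the fatty acid binding protein of liver, averaged 6951 FPKM in antagomiR-122 mice and 5680 FPKM in antagomiR-control mice, and its highest value, 10432 FPKM, was again in antagomiR-122 replicate 2.

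Of 24 genes for peroxisomal oxidation of long-chain and dicarboxylic acids, 22 were tested and 0 passed, with 18 higher and 4 lower and a median log2 fold change of 0.09. Acaa1a, the peroxisomal thiolase, averaged 123 ± 19.4 FPKM in antagomiR-122 mice and 93.3 ± 6.88 FPKM in antagomiR-control mice, without overlap (log2 fold change 0.39, limma adjusted p = 0.466). Acot4, a thioesterase for succinyl-CoA and dicarboxylic acyl-CoA, was at 0.34 and Nudt19, a coenzyme A hydrolase, at 0.29. Ehhadh, the bifunctional enzyme of the peroxisomal pathway, was at -0.04.

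All 29 listed genes of PPARα and its other liver targets were tested and 0 passed, with 24 higher and 5 lower and a median log2 fold change of 0.15. The receptor Ppara itself was at 0.14 (79.4 ± 6.95 FPKM in antagomiR-122 mice and 72.1 ± 5.27 FPKM in antagomiR-control mice) and its partner Rxra at 0.13. Cpt1a, which carries fatty acids towards mitochondria, was at 0.32, Creb3l3 at 0.26 and Mlycd, malonyl-CoA decarboxylase, at 0.20. Pdk4, the kinase that shuts pyruvate dehydrogenase, was at -1.06 (limma adjusted p = 0.759; -1.46 to -0.64 with 1 mouse left out) and stood at 23.1, 57.7, 23.5 and 11.6 FPKM in antagomiR-122 mice, against 129, 29.3, 31.6 and 63.5 FPKM in antagomiR-control mice. The members of the lists were read beside the share of all tested genes that were higher in antagomiR-122 mice, 53.0%, and these counts are a description with no test.

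Male-biased liver genes and the growth hormone and androgen pathway were listed because Cyp4a12a is known to depend on these hormones. Of 26 genes 22 were tested and 0 passed, with 3 higher and 19 lower and a median log2 fold change of -0.20. Gstp1, a glutathione transferase, averaged 884 ± 138 FPKM in antagomiR-122 mice and 1380.4 ± 227 FPKM in antagomiR-control mice, without overlap (log2 fold change -0.64, limma adjusted p = 0.308). Stat5a was at -0.28, also without overlap, and Stat5b, the main growth hormone effector in liver, at -0.13 (-0.28 to -0.0022 with 1 mouse left out). The major urinary protein gene Mup20 was at -0.65 with overlapping groups (limma adjusted p = 0.671). Its lowest value, 1823 FPKM, was in antagomiR-122 replicate 4, the library in which several other Mup genes were listed at 0. Cyp4a12a and Cyp4a12b, at 0.10 and 0.16, did not share the sign of most of this list. Without antagomiR-122 replicate 2 they were at -0.17 and -0.26, but the list was not recounted without that mouse.

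Of 25 genes of eicosanoid and epoxide metabolism 20 were tested and 0 passed, with 17 higher and 3 lower and a median log2 fold change of 0.03. Pla2g6, a phospholipase that frees fatty acids from membranes, was at 0.21 without overlap, Cyp2c54, an arachidonic acid epoxygenase, at 0.27 and Cyp2c38 at 0.23 (0.014 to 0.43 with 1 mouse left out). Nr1i3, the receptor CAR that regulates many P450 genes, averaged 52.7 ± 3.02 FPKM in antagomiR-122 mice and 42.7 ± 2.44 FPKM in antagomiR-control mice, without overlap (log2 fold change 0.30, limma adjusted p = 0.378).

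The deposited table held 11 further Cyp4 entries. Of these, 3 were tested: Cyp4b1 at 11.4 ± 2.21 FPKM in antagomiR-122 mice and 11.6 ± 0.851 FPKM in antagomiR-control mice, Cyp4f17 at 8.12 ± 2.43 FPKM in antagomiR-122 mice and 9.11 ± 1.42 FPKM in antagomiR-control mice, and Cyp4f16 at 1.98 ± 1.19 FPKM in antagomiR-122 mice and 2.29 ± 0.950 FPKM in antagomiR-control mice (SD, n = 4 each). By limma, 0 of the 3 passed the test, at log2 fold changes of -0.04, -0.17 and -0.18. The other 8 lay under the filter, 2 of them listed at 0 in every library and none above 0.848 FPKM in any.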

How the data were processed

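Liver RNA of 8 mice was sequenced, 1 library per mouse, with group and replicate number read from each title. Cufflinks 2.2.1, Cuffdiff, TopHat2 2.0.13, cutadapt 1.7.1 and bcl2fastq 2.15.0.4 are named with GRCm38 in the submitters' processing notes. The authors deposited FPKM per mouse and per group, with a log2 fold change, a test statistic (a score with no fixed range), a p-value and a q-value per gene. What is not given in the sources here includes annotation release, strand setting, read length and library scaling, so depth was only estimated, from the steps between low values: 65.1% of 5239 low values lay within 0.1 of whole multiples with a step per library, against 21.5% with equal steps.

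Values were taken as log2(FPKM + 1), and genes averaging 1 FPKM or more were fitted with the robust, trended and two-sided limma 3.58.1 test (R 4.3.3), adjusted over all tested genes. A fold change on this scale understates that of low genes. A count test was not used, FPKM not being counts. Sums, shares and ratios were compared with exact permutation tests over mice in scipy 1.17.1. Identity was computed on global alignments of the longest coding sequences of GENCODE M21, and promoters are RefSeq's. The scripts were tested on simulated data. All Cyp4 genes over the filter, a set of anchor genes, the 3 other genes of each list with the smallest p and the 3 nearest profiles of 4 members are named, except that some genes this rule would name are not reported here. The members and lists were chosen with earlier results of these data known. The alternatives were another pseudocount (0.1), no filter, median-ratio scaling, quantile normalization, a plain variance model, the replicate number as a block and each mouse left out. The labels do not say whether the replicate numbers pair the mice, so the main test used no pairing.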

Additional observations from a re-analysis of the deposited data

Results flagged for a closer look

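Summed over the 6 Cyp4a genes, antagomiR-122 replicate 2 stood at 2338 FPKM, and the next mouse of its group at 1203 FPKM. The gap was 0.848 of the group's range, over Dixon's 95% critical value for 4 mice. Without this mouse the difference between the groups in mean log2 sum was 0.05 in place of 0.31.

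Cyp4f13 in antagomiR-122 replicate 2 was at 37.3 FPKM, the next mouse of its group at 30.5 FPKM, a gap of 0.986 of the range, again over the critical value. Both flags fall on the same mouse. Of 22 groups of values checked 2 met this rule, and chance gives about 1 in 20 for independent groups. These groups share mice, and the sum is built from genes also checked, so that rate is only a rough guide.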

How the results depend on the processing

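With every alternative run, 0 of all tested genes and 0 of the 10 Cyp4 genes passed the test. At an unadjusted p under 0.05 the count over all tested genes was 828, between 603 and 978 with 1 mouse left out and 1296 with no filter on low values, where more genes were tested. Of 140 results for the 10 genes under alternatives, 127 kept their direction and 13 changed sign, all 13 with 1 mouse left out, while 60 of 60 kept it with all mice. With no filter, the plain variance model or the replicate block, the log2 fold change is the main one by construction. Those settings could not change a sign, so their part in both counts says nothing about stability. The smallest adjusted p of any was 0.587, and Cyp4a10 had an unadjusted p under 0.05 with 3 of the 8 mice left out in turn. With 1 mouse left out, the log2 fold change ran from 0.29 to 0.61 for Cyp4a10, 0.02 to 0.49 for Cyp4a14, -0.17 to 0.29 for Cyp4a12a, -0.26 to 0.42 for Cyp4a12b, -0.38 to 0.19 for Cyp4a31, -0.25 to 0.040 for Cyp4a32, -0.085 to 0.015 for Cyp4f13 and -0.060 to 0.0048 for Cyp4f14. Among other named genes it crossed 0 for Acot1 (-0.10 to 0.48), Cyp4b1 (-0.16 to 0.033), Cyp4f16 (-0.42 to 0.0026), Dtymk (-0.024 to 0.043), Ehhadh (-0.29 to 0.24), Fgl1 (-0.046 to 0.34), Hdgfrp2 (-0.025 to 0.032), Hyou1 (-0.33 to 0.12), Lifr (-0.31 to 0.12) and Pgam1 (-0.012 to 0.058). Under quantile normalization Pgam1 was at -0.0078, and under median-ratio scaling Hdgfrp2 was at -0.0035, and the cause was not tested. Without antagomiR-122 replicate 2, a setting chosen after seeing the data, r was 0.75 for Cyp4a14 and Cyp4a10, 0.71 for Cyp4a12a and Cyp4a12b and 0.84 for Cyp4a31 and Cyp4a32, but 0.082 for Cyp4a10 and Cyp4a12a, 0.021 for Cyp4a10 and Cyp4a32, -0.12 for Cyp4a10 and Cyp4a31, -0.080 for Cyp4a10 and Cyp4a12b and -0.056 for Cyp4a14 and Cyp4a12b. The coefficient of variation of Cyp4a12b, Cyp4a14 and Cyp4a10 fell by more than 1.5 times there.

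The deviations of mice with the same replicate number correlated at 0.13, -0.24, -0.06 and -0.18. Those of mice with different numbers in the 2 groups ran from -0.21 to 0.34. No sign of pairing by number was seen, but so few values cannot exclude it. With the replicate block 0 genes passed and 660 had an unadjusted p under 0.05, and Cyp4a10 was at 0.49 (limma adjusted p = 0.898).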
